A study of Homo sapiens with 6 samples.

Results

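The regions described here are the 20-nt bins in which the 2 UACC-62 replicates of a CELF1 RNA immunoprecipitation gave different answers. A bin was taken when it held more than 30 IP reads in replicate 1 or in replicate 3 but not in both, so the members were chosen by the IP reads of both replicates, and their IP reads are given below as a description with no test. There were 44921 such bins, 47.8% of the 94027 bins over 30 IP reads in either replicate and a small fraction of the 1213110 bins listed in either. Replicate 3 alone passed in 35904 bins (2.96% of all listed bins), and replicate 1 alone in 9017 (0.743%). The members were split by what the other replicate showed. In 8572 bins replicate 1 alone passed and the bin was listed in replicate 3 with 30 or fewer reads, and in 445 it was not listed there. In 34871 bins replicate 3 alone passed and the bin was listed in replicate 1 with 30 or fewer reads, and in 1033 it was not listed there.

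UACC-62 and SK-Mel-103 are established human melanoma cell lines, for which the labels name no drug or genetic change, fixed with formaldehyde. CELF1 (also named CUGBP1) was pulled down from sonicated lysates with an anti-CUGBP1 antibody (Abcam, ab9549), and the recovered RNA (IP) was sequenced beside RNA of the lysate (input), both after removal of ribosomal RNA by the extract protocol, although the labels also speak of poly A+ RNA. The design text calls the UACC-62 experiments biological duplicates, and the labels number them 1 and 3. SK-Mel-103 had 1 IP sample, which played no part in choosing the bins and serves below as an outside sample. The lists held 11333805 IP and 10161917 input reads for replicate 1, and 14436573 IP and 8900292 input reads for replicate 3. With 1 sample on each side, no difference between the replicates has a test. Melanocyte genes MITF, MLANA, TYR, SOX10 and DCT were listed in UACC-62, PMEL and TYRP1 were not, and of the markers of other cell types KRT5, KRT14, CD3E and COL1A1 were not listed and PTPRC was listed without a bin over 30 reads.

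CELF1 is an RNA-binding protein of the CELF family with 3 RNA recognition motifs. It is known for binding GU-rich elements, above all in 3′ UTRs, where it recruits the decay machinery to some mRNAs and affects the stability or translation of others. In the nucleus it also binds GU-rich introns and takes part in the choice of alternative exons.

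The sequences that show the clearest sequence difference between the groups came from introns in which replicate 1 alone passed. They are printed on the transcript strand with DNA letters, from the GRCh37 genome, with every TGTGT and TGTTT in capitals (UGUGU and UGUUU in the RNA). For RUNX1, CHFR, EHMT1, DIP2C and ITIH5, which the rule for named genes selected, and for GAK, chosen after its values were seen, the bins are among those with most replicate 1 IP reads of the gene's intronic members with TGTGT. SOX6, LRPPRC, MITF and NHSL1, which the rule also selected, are described below without sequences.
RUNX1, chr21:36215521-36215540, minus strand: tgtatccccaTGTGTGTTTt
RUNX1, chr21:36215481-36215500, minus strand: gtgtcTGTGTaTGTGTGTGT
RUNX1, chr21:36215421-36215440, minus strand: gtccaTGTGTGTctgtatgt
CHFR, chr12:133527461-133527480, minus strand: tgtgagtaTGTGTgatgtat
CHFR, chr12:133527721-133527740, minus strand: cagTGTGTGTGTatgcgtga
EHMT1, chr9:140699561-140699580, plus strand: agtcatctgcaTGTGTGTGT
DIP2C, chr10:424281-424300, minus strand: gtgccttcaTGTGTGTctgt
ITIH5, chr10:7607161-7607180, minus strand: tgaTGTGTGTGTaTGTGTGT
ITIH5, chr10:7607041-7607060, minus strand: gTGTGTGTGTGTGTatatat
GAK, chr4:862921-862940, minus strand: taccctgcatctaTGTGTGT

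The member with most IP reads in each of the 4 groups had neither element. These bins were chosen by IP reads alone, whereas the intronic ones above were chosen for holding TGTGT. The difference in the element between the printed sequences therefore follows from the choice.
SERPINE2 3′ UTR, chr2:224839921-224839940, minus strand: gtactccttggatttgcatt
CBX3 3′ UTR, chr7:26252761-26252780, plus strand: acaaccttttgtaacctaac
opposite strand of CHD9, chr16:53199061-53199080, minus strand: taagctattccatctccctg
ZNF469 coding region, chr16:88501301-88501320, plus strand: gaggtctgcgcagcctcctt

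The typical member passed the threshold by a few reads. Replicate 1 only bins listed in replicate 3 had a median of 37 IP reads in replicate 1 (interquartile range 33 to 44) against 21 in replicate 3 (15 to 26). For replicate 3 only bins listed in replicate 1, the medians were 40 reads in replicate 3 (34 to 50) and 19 in replicate 1 (14 to 25). Bins absent from the other list had medians of 39 reads in replicate 1 and 42 in replicate 3. On either side of the threshold, 940 replicate 1 only bins and 1427 replicate 3 only bins held 31 to 35 reads in one replicate and 26 to 30 in the other, beside 923 bins with 31 to 35 reads in each and 1588 with 26 to 30 in each. Wide gaps were no rarer, and 1070 replicate 1 only and 4373 replicate 3 only bins had 10 or fewer reads in the other replicate.

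The lists of the 2 replicates differed in depth, replicate 3 holding 1.27 times the IP reads of replicate 1. Scaled to the total of each list (RPM), the median ratio of the higher over the lower replicate was 2.42 in replicate 1 only bins and 1.80 in replicate 3 only bins listed in both. Among the latter, 1488 bins (4.27%) were not higher in replicate 3 once reads were scaled. Replicate 1 only bins could not change side, since scaling lowers replicate 3 further. When the threshold of replicate 3 was raised in proportion to depth, to 38.2 reads, replicate 1 only bins listed in the other replicate numbered 13141 and replicate 3 only bins 19135, in place of 8572 and 34871.

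Members listed in both replicates were chiefly 3′ UTR bins, although less so than bins over 30 reads in both replicates, of which 79.0% lay in 3′ UTRs (95% Wilson interval 78.6 to 79.4). All intervals of shares cover counting error only, and bins of a transcript share its level, so that the intervals are too narrow. The 3′ UTR share was 72.2% (71.8 to 72.7) for replicate 3 only bins listed in replicate 1 and 62.1% (61.0 to 63.1) for replicate 1 only bins listed in replicate 3, with 36.3% for all listed bins. The order turned when each gene was counted once per region, with bins antisense to or outside genes left out. The shares were then 60.7% of 4568 gene and region pairs for replicate 3 and 66.8% of 1872 for replicate 1, on another base than the bins. Absence from the other list went with other regions. Bins of replicate 1 that were not listed in replicate 3 lay in 3′ UTRs in 9.21% (6.86 to 12.3) and in introns of protein-coding genes in 41.8% (37.3 to 46.4). Bins of replicate 3 that were not listed in replicate 1 lay in 3′ UTRs in 24.9% (22.3 to 27.6) and in coding regions in 53.3% (50.3 to 56.4). All listed bins had 29.6% in these introns and 21.4% in coding regions. At a threshold of 100 reads the order of the unlisted groups in 3′ UTRs also turned, with 19.0% of 58 bins for replicate 1 and 10.6% of 142 for replicate 3.

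The intron share was several times higher on the replicate 1 side. Introns of protein-coding genes held 12.3% (11.6 to 13.0) of all replicate 1 only bins, 2.24% (2.10 to 2.40) of replicate 3 only bins and 1.99% (1.87 to 2.11) of bins over 30 reads in both. All 3 lay below the 29.6% of all listed bins. The same contrast stood in the whole lists, where introns of genes of any type took 15.3% of the IP reads of replicate 1 and 8.50% of those of replicate 3. Of the input reads they took 4.56% and 2.92%. In SK-Mel-103 these introns took 15.2% of the IP and 7.97% of the input reads, so replicate 3 had the lowest IP share of the 3 lists. The part of the input in the difference between the IPs was not tested. Coding regions held 13.5% of replicate 1 only, 21.7% of replicate 3 only and 12.2% of common bins, and the replicate 3 share was close to the 21.4% of all listed bins. Bins antisense to a gene and bins outside genes made up 2.77% and 6.10% of replicate 1 only bins, against 0.886% and 1.14% of replicate 3 only bins and 1.75% and 5.06% of all listed bins.

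**Figure D1:**
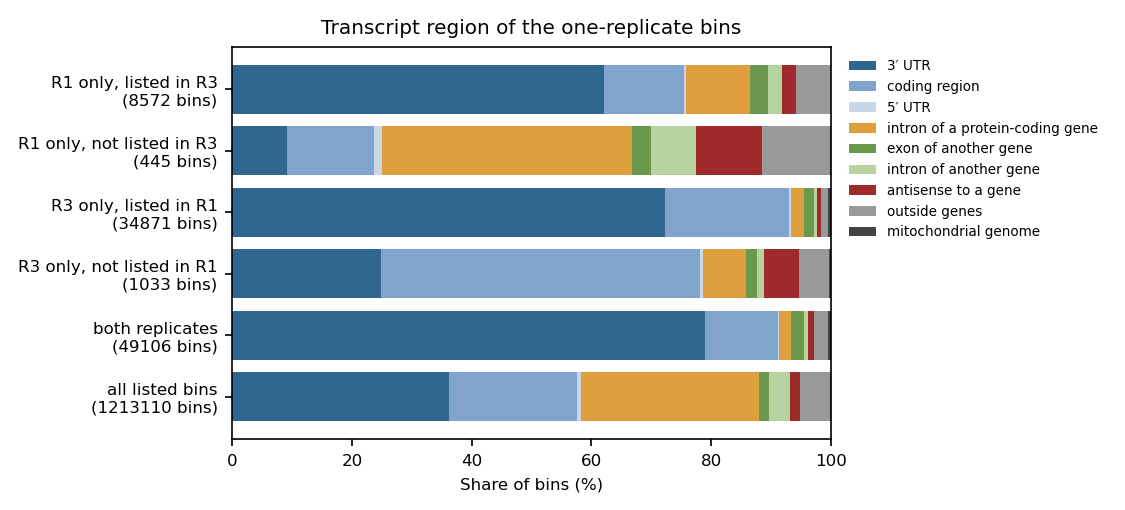
Share of bins (x axis, %) in each transcript region for the 4 groups of one-replicate bins, for bins over 30 IP reads in both UACC-62 replicates and for all listed bins, with R1 and R3 for replicates 1 and 3. The 3′ UTR share falls from 79.0% in the common bins to 9.21% in replicate 1 only bins not listed in replicate 3, where introns reach 41.8%, and all listed bins have 36.3% in 3′ UTRs and 29.6% in introns.

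By RNA class, exons of mRNAs held 92.9% of replicate 3 only bins and 73.2% of replicate 1 only bins. Exons of lncRNAs held 2.95% of replicate 1 only bins (266 bins) and 1.55% of replicate 3 only bins (556 bins), with 2.04% among common bins. The mitochondrial genome accounted for 198 replicate 3 only and 5 replicate 1 only bins. Small structured RNAs (snRNAs, snoRNAs, 7SL and the like) gave 57 and 10 bins, and exons of pseudogenes 62 and 9. Reads of such repeated RNAs and of pseudogenes can be shared between copies, so their bins are less certain.

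UGUGU was more frequent in intronic bins of replicate 1 than of replicate 3, although most of these bins did not hold it. The element, searched as TGTGT on the transcript strand, was present in 12.3% (10.5 to 14.3) of the 1108 intronic replicate 1 only bins of protein-coding genes, in 2.85% (1.91 to 4.25) of the 806 intronic replicate 3 only bins and in 3.89% (2.85 to 5.30) of the 976 common intronic bins. Listed intronic bins as a whole held it in 3.76%, and the bins of the same genes' introns that stayed at or under 30 reads in both replicates in 4.07%. Counted by gene, 48 of 229 genes with an intronic replicate 1 only bin had at least 1 such bin with UGUGU (21.0%). The counts were 21 of 307 (6.84%) for replicate 3 and 24 of 221 (10.9%) for common bins. Such a count rises with the number of bins per gene. A single bin was held by 209 of the 307 and 152 of the 221 genes, against 122 of the 229. The bins were concentrated, since 10 genes held 36.4% of the intronic replicate 1 only bins while 122 genes held a single one, and bins of a gene are not independent observations. Without the 10 genes with most bins of each group, an alternative chosen after seeing the data, UGUGU was in 11.8% of 705 replicate 1 only, 2.30% of 521 replicate 3 only and 4.08% of 417 common bins. Genes were left out by their number of bins, not by UGUGU. CHFR and GAK, with UGUGU in 15 and 12 replicate 1 only bins, therefore stayed in, and a share without them was not computed.

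Outside introns the element was less frequent and differed less. In 3′ UTRs, UGUGU occurred in 5.36% (4.78 to 5.99) of replicate 1 only bins listed in replicate 3, 3.60% (3.37 to 3.83) of replicate 3 only bins listed in replicate 1 and 4.36% (4.16 to 4.57) of common bins. In coding regions the values lay between 1.43% and 1.60% for the same 3 groups. UGUUU, searched as TGTTT, was found in 6.97%, 5.89% and 6.92% of the 3′ UTR bins of these groups. Across all listed bins of the nuclear genome 3.08% held TGTGT and 4.62% TGTTT, and a window of 20 nt can hold both. The median GC content was 40% in replicate 1 only and in replicate 3 only bins listed in both replicates, as in common bins, and 45% in members not listed in the other replicate.

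**Figure D2:**
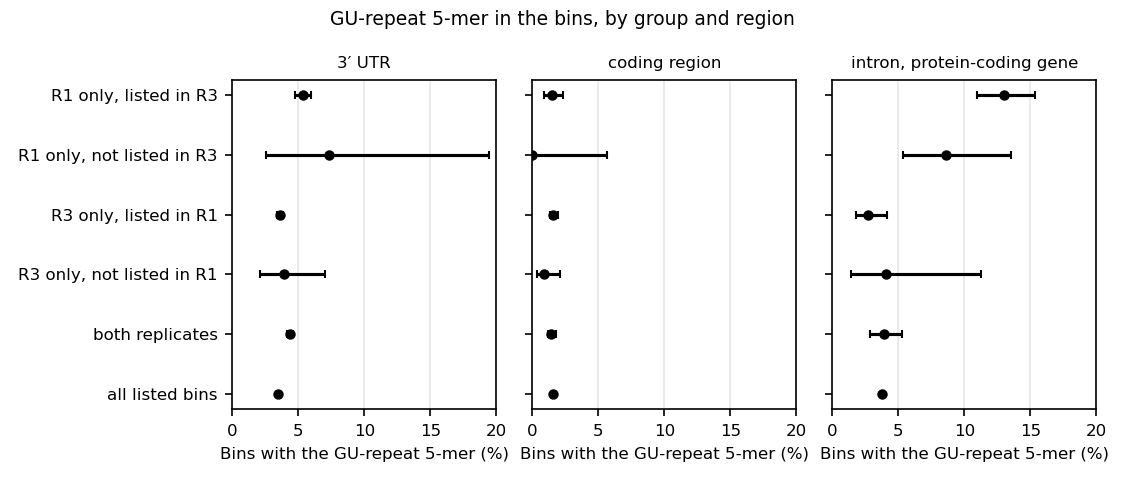
Share of bins with the GU-repeat 5-mer UGUGU (x axis, %) by group of bins, in 3′ UTRs, coding regions and introns of protein-coding genes. Points are shares and bars 95% Wilson intervals for counting error. Intronic replicate 1 only bins listed in replicate 3 stand at 13.0%, against 2.73% for the replicate 3 only bins and 3.89% for the common ones.

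Some introns held dense clusters of replicate 1 only bins. In RUNX1 (ENSG00000159216, chr21:36160098-37376965), a transcription factor of blood development, 53 intronic bins passed in replicate 1 only and none in replicate 3 only or in both, and 33 of them lay within 2000 nt at chr21:36213661-36215660. UGUGU was in 15 of the 53 bins. The replicate 1 IP reads of the 53 bins ran from 31 to 170 with a median of 47. In replicate 3 the same bins were absent (14 bins) or held at most 25 reads (median 9). No bin of the set had more than 4 input reads in replicate 1 or 3 in replicate 3. SK-Mel-103 listed all 53 bins, with 37 of them over 30 reads (median 36, highest 105), so that the intronic site passed in the other cell line. In the bin chr21:36215521-36215540, whose sequence is printed above, replicate 1 held 170 IP reads, replicate 3 held 18 and SK-Mel-103 held 102.

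CHFR, a mitotic checkpoint ubiquitin ligase, had 19 intronic replicate 1 only bins within chr12:133527041-133528140, of which 15 held UGUGU. Their median was 39 reads in replicate 1 and 14.5 in replicate 3 where listed, and SK-Mel-103 listed all 19 with a median of 17. In EHMT1, a histone H3 lysine methyltransferase, 28 intronic bins passed in replicate 1 only (31 to 85 reads), 10 of them also in SK-Mel-103. UGUGU was in 7 of the 28. DIP2C gave 48 intronic bins with a median of 36 reads in replicate 1 and 11.5 in replicate 3 where listed, and SK-Mel-103 listed 44 without any over 30 reads. UGUGU was in 9 of the 48. GAK, a kinase of clathrin uncoating, had 14 bins, 12 of them with UGUGU. PHLDB1 gave 52 bins, 9 of them with UGUGU, and ITIH5 gave 16, 5 of them with UGUGU. GAK and PHLDB1 were chosen after their values were seen.

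UGUGU was rarer in the intronic clusters of LRPPRC, NHSL1 and MITF. LRPPRC, a regulator of mitochondrial mRNAs, had 34 intronic replicate 1 only bins with UGUGU in 3, and NHSL1 had 32 with UGUGU in 1. In MITF, the master transcription factor of melanocytes, 18 intronic bins passed in replicate 1 only (31 to 76 reads, with 8 as the replicate 3 median where listed), UGUGU being present in 1. SOX6 had 59 intronic bins of this kind, 49 of them within chr11:16055481-16057460, with UGUGU in 9. SK-Mel-103 listed no bin of the SOX6 set and only 4 of the MITF set.

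Some genes carried members of both kinds, split between intron and exon. MITF had 11 replicate 3 only bins, all in its 3′ UTR, with medians of 39 IP reads in replicate 3 and 23 in replicate 1. LRPPRC had 25 replicate 3 only bins, 15 in the coding region and 10 in the 3′ UTR, and none in an intron. SOX6 had 42, of which 41 lay in the 3′ UTR. Over the 1215 protein-coding genes with members in both directions, introns held 10.9% of 6268 replicate 1 only bins and 2.18% of 19261 replicate 3 only bins.

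Exon ends were frequent in intronic replicate 3 only bins and in coding bins of either replicate that the other did not list. An exon end of a protein-coding transcript fell inside 17.6% (15.0 to 20.6) of intronic replicate 3 only bins listed in replicate 1 and inside 36.5% (26.4 to 47.9) of those not listed. The share was 1.41% (0.826 to 2.40) in intronic replicate 1 only bins listed in replicate 3, 7.79% (6.27 to 9.64) in common intronic bins and 2.20% in all listed intronic bins. In coding regions the shares were 21.8% (18.5 to 25.4) for replicate 3 only bins not listed in replicate 1 and, for replicate 1 only bins not listed in replicate 3, 16 of 64 bins (interval 16.0% to 36.8%), the higher of the 2 shares. Coding members listed in both had 10.0% (replicate 3 only) and 8.09% (replicate 1 only), near the 9.76% of all listed coding bins. No input read was recovered for 49.0% of the 551 coding bins of replicate 3 not listed in replicate 1, compared with 1.53% of coding replicate 3 only bins listed in both. For coding bins of replicate 1 not listed in replicate 3 it was 21 of 64 (32.8%). Over all regions, EIF4G2, HSP90AB1, CBX5, CLTC and ATP13A3 had most replicate 3 bins not listed in replicate 1, with 12, 11, 10, 7 and 6. The highest of those in HSP90AB1, a cytosolic chaperone, held 287 IP reads and no input read in replicate 3, whereas the neighbour on one side held 185 reads there and the other was not listed.

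Gene input level also differed between the groups. The level of a gene was taken as its input reads in listed exonic bins per kb of exon, in RPM of the listed input, averaged over both replicates. Bins were listed by their IP reads, so the level also rises with the part of the exons that was listed. It is not a measure of transcript abundance alone. The median level over bins was 22.4 (interquartile range 9.60 to 53.7) for replicate 1 only bins listed in replicate 3 and 46.9 (22.3 to 90.5) for replicate 3 only bins listed in replicate 1. It was 57.5 (27.3 to 119) for common bins and 11.9 over all listed bins. The unlisted groups stood at 23.3 for replicate 1 and 68.8 for replicate 3, the highest of the 5 groups of bins over 30 reads. Counted once per gene, the medians were 22.6 for the 1641 genes with a replicate 1 only bin and 29.7 for the 3322 genes with a replicate 3 only bin. The interquartile ranges of the bins' levels overlapped.

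At the bins themselves, input was lower where replicate 1 alone passed than where replicate 3 alone did. The median was 7 input reads in replicate 1 and 5 in replicate 3 for replicate 1 only bins listed in both, 19 and 16 for replicate 3 only bins, 24 and 21 for common bins, and 4 and 3 over all bins listed in the replicate. No input read was recovered in 39.3% of replicate 1 bins not listed in replicate 3 and in 41.5% of replicate 3 bins not listed in replicate 1, against 7.72% and 2.27% of the listed members in the replicate that passed. Over all listed bins the shares were 15.9% in replicate 1 and 29.2% in replicate 3. Since a bin enters a list only when it passes with input as covariate, absence from a list can come from either library, and which of them was responsible was not tested.

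The members fell in 3717 genes, of which 1246 had bins of both directions and 1547 had no bin over 30 reads in both replicates. At least 10 replicate 1 only bins were found in 207 genes and at least 10 replicate 3 only bins in 1047. Whether a gene's input RNA moved with its bins was read from exonic bins listed in both replicates, as log2 of replicate 3 over replicate 1 in RPM, for the 5359 genes with at least 10 such bins and 100 input reads. The input ratio had a median of -0.09 over these genes and was below 0 in 3392 of them (63.3%). In the 199 genes with 10 or more replicate 1 only bins the median was -0.28. It was -0.49 (interquartile range -0.79 to -0.32) in the 28 genes with 10 or more replicate 1 only bins and no replicate 3 only bin, 27 of which were below 0. In the 436 genes with 10 or more replicate 3 only bins and no replicate 1 only bin it was 0.05 (-0.07 to 0.17). The corresponding IP ratios, fixed in part by the choice of bins, were -0.997 and 0.58. Across the 5359 genes the IP and input ratios correlated with Pearson's r of 0.52 and Spearman's rho of 0.53, a description over genes that share the same 4 libraries. In bulk RNA of a culture, fewer cells with a transcript and less of it per cell cannot be told apart.

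**Figure D3:**
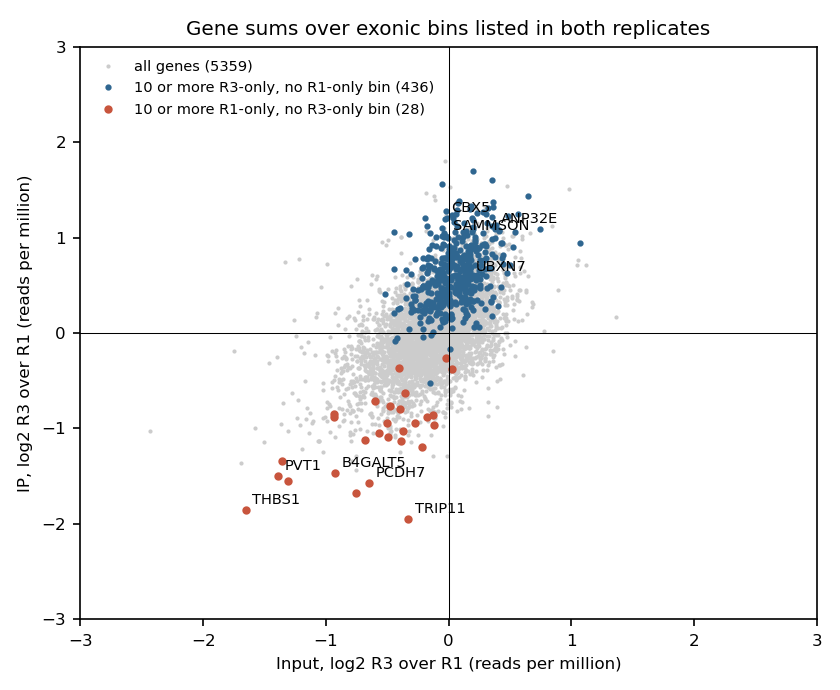
Log2 ratio of replicate 3 over replicate 1 in input (x axis) and IP (y axis), each from RPM summed over exonic bins listed in both UACC-62 replicates, 1 point a gene. Red genes (28) have 10 or more replicate 1 only bins and no replicate 3 only bin and lie mostly left of 0 in input. Blue genes (436) have the reverse and are centred near 0 in input.

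The protein-coding genes with most replicate 1 only bins listed in replicate 3 were TRIP11, B4GALT5, PCDH7, THBS1 and ITIH5. The IP direction of these genes, and of the lncRNAs given after them, follows from that choice. THBS1 (ENSG00000137801, chr15:39873280-39891667), which encodes the secreted matrix glycoprotein thrombospondin-1, had 64 replicate 1 only bins, 37 in the 3′ UTR and 26 in the coding region, and no replicate 3 only bin. Over its exonic bins listed in both, 4953 IP and 8396 input reads in replicate 1 faced 1740 IP and 2344 input reads in replicate 3. In RPM, IP was 3.63-fold and input 3.14-fold higher in replicate 1, so both libraries moved by a like amount. Of its members, 60 were also over 30 reads in SK-Mel-103.

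B4GALT5, a galactosyltransferase of glycolipid synthesis, had 66 replicate 1 only bins (IP 2.77-fold and input 1.90-fold higher in replicate 1), and PCDH7, a protocadherin, had 63 (2.97-fold and 1.56-fold). In both genes the IP differed more than the input. SK-Mel-103 passed in 39 of the B4GALT5 bins and in none of the PCDH7 bins.

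TRIP11 (ENSG00000100815, chr14:92432335-92507240), a golgin, stood out by region and by ratio. Of its 88 replicate 1 only bins 83 lay in the coding region, only 1 bin passed in both replicates, and none passed in SK-Mel-103. The gene had 5906 IP reads in replicate 1 and 1948 in replicate 3, a 3.86-fold difference in RPM, against 906 and 632 input reads (1.26-fold). Its highest member, chr14:92470321-92470340, held 109 IP reads in replicate 1, 15 in replicate 3 and 23 in SK-Mel-103. ITIH5, which binds hyaluronan, had 62 replicate 1 only and 7 replicate 3 only bins, with input 1.33-fold higher in replicate 1.

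Among lncRNAs, NEAT1 and PVT1 had many replicate 1 only bins. NEAT1, the scaffold of paraspeckles, had 106 replicate 1 only bins, 3 replicate 3 only bins and 19 in common. Its IP was 2.33-fold and its input 2.29-fold higher in replicate 1. PVT1 had 94 replicate 1 only bins and none of the other kinds, with IP 2.83-fold and input 2.61-fold higher in replicate 1, on 203 and 68 input reads. These folds come from exonic bins listed in both replicates, whereas 88 of the 94 PVT1 members were intronic.

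On the replicate 3 side the leading protein-coding genes were CBX5, HAPSTR1, UBXN7, ATM and PTAR1. CBX5 (ENSG00000094916, chr12:54624726-54673917), the heterochromatin protein HP1 alpha, had 234 such bins, 232 of them in the 3′ UTR, beside 49 common bins and no replicate 1 only bin. IP reads over its bins listed in both were 7207 in replicate 1 and 21080 in replicate 3, or 2.30-fold in RPM, while input was 6200 and 5310 reads, a difference of 1.02-fold. The typical replicate 3 only bin of CBX5 held 49 IP reads in replicate 3 and 15 in replicate 1. HAPSTR1, a stress response gene, had 163 (IP 1.37-fold higher in replicate 3), UBXN7, an adaptor of the p97 ATPase, 144 (log2 IP ratio 0.58), ATM, the DNA damage kinase, 145 (1.25-fold) and PTAR1, a prenyltransferase subunit, 131 (1.11-fold). In ATM 100 of these bins lay in the coding region. PTAR1 and HAPSTR1 also had 215 and 128 common bins.

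SAMMSON, a lncRNA of the melanocyte lineage next to MITF, had 102 replicate 3 only bins, 71 of them intronic, and 12 common bins. Over its exonic bins listed in both, IP was 2.02-fold higher in replicate 3 (819 and 2110 reads), with 222 input reads in replicate 1 and 192 in replicate 3. No member passed in SK-Mel-103. Genes of this side were chosen by their replicate 3 only bins, so their IP direction follows from that choice. In exonic bins, input in RPM was within 1.02-fold between the replicates in CBX5 and SAMMSON. For the other leading genes, input of replicate 1 over replicate 3 was 0.886 in HAPSTR1, 0.887 in UBXN7, 1.05 in ATM and 1.14 in PTAR1.

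Of genes without any common bin, those with most replicate 3 only bins are given next, and their IP direction follows from that choice. AMMECR1 had 52 replicate 3 only bins, ANP32E, a histone H2A.Z chaperone, 31, STARD3NL 30, FAM120AOS 27 and UBE2H, a ubiquitin-conjugating enzyme, 26, and none had a replicate 1 only bin. IP was 1.69-fold to 2.61-fold higher in replicate 3 in these 5 genes. Their input ratio of replicate 1 over replicate 3 ran from 0.769 in ANP32E to 1.13 in STARD3NL. On the replicate 1 side DIP2C, NHSL1, EHMT1 and CHFR were genes of this type, PVT1 being the fifth, and in the 4 protein-coding ones every replicate 1 only bin was intronic.

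Gene lists were read as shares of the exonic bins over 30 reads in either replicate, of which 7.91% were replicate 1 only and 39.2% replicate 3 only. Extracellular matrix and integrin genes stood apart. Of their 885 bins 29.4% (26.5 to 32.5) were replicate 1 only and 6.89% (5.40 to 8.75) replicate 3 only. Replicate 1 only bins came from all 14 genes of the list that had any bin over 30 reads. ITGAV (44 bins), LAMC1 (37), ITGB3 (35) and ITGB8 (31) followed THBS1. Input was lower in replicate 3 in 19 of 20 genes of the list with a ratio (63.3% of all genes), with a median log2 of -0.47, and the IP median was -0.68. ITGB3 was the exception in input, at 0.11, while its IP ratio was -0.72.

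Immediate early and heat shock genes also lay below the rest in replicate 3 only bins, with 7.53% (4.54 to 12.2) of 186 bins. Their input was lower in replicate 3 in 8 of 9 genes (median -0.48), beside 63.3% of all genes. Without HSPA8, which held 89 of the bins, the replicate 3 only share was 11.3% of 97. Most of these 97 bins were from DNAJB1, with 10 replicate 3 only, 2 replicate 1 only and 60 common bins. Only 6 of the 15 genes had a bin over 30 reads, namely DNAJB1, HSPA8, HSPH1, IER2, HSPA1B and HSPA1A, and all 6 had one-replicate bins. IER2 was the only immediate early gene among them, so the share is chiefly that of HSPA8 and DNAJB1.

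Other lists leaned to replicate 3. Nuclear oxidative phosphorylation genes had 54.8% (50.2 to 59.3) replicate 3 only bins of 456, from 58 of 62 genes with a bin over 30 reads. COX7A2L (17 bins), ATP5PB (18) and UQCRFS1 (12) had no replicate 1 only bin. Replication-dependent histones had 49.3% (42.5 to 56.1) of 205. All 42 histone genes with a ratio had lower input in replicate 3 (median -0.59), whereas their IP median was 0.16, so that IP and input went opposite ways. In H1-5, for example, 596 IP and 4084 input reads in replicate 1 faced 858 IP and 2208 input reads in replicate 3. Histone genes are close copies of each other, and their reads can be shared between them.

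Splicing factors (41.6% of 805 bins) and translation factors (40.5% of 1621) were near the 39.2% of all exonic bins. EIF4E, the cap-binding protein, gave 40 replicate 3 only bins with IP 2.30-fold higher in replicate 3 and an input log2 ratio of 0.04. SRSF3 gave 27 with IP 1.96-fold higher. Ribosomal protein genes (27.0% of 1303) and glycolysis and hypoxia genes (22.6% of 610) were below that share, with 1.30% and 1.31% replicate 1 only bins, and most of their bins passed in both replicates. For snoRNA host genes the share was 27.3% of 205 bins, but 50.5% of the 97 left without SNHG16, which held 101 of the 144 common bins. Small structured RNAs had 33.8% of 142. On the mitochondrial genome as a whole 198 of 413 bins (47.9%) were replicate 3 only. The melanocyte lineage list had 26 replicate 3 only, 4 replicate 1 only and 4 common bins. The replicate 3 only bins came from 2 genes, MLANA with 15 and MITF with 11, and none from TYR, SOX10 or DCT. Over the 5 genes with a ratio the median log2 was -0.27 in IP and -0.38 in input. Input was lower in replicate 3 in 4 of these 5 genes, beside 63.3% of all genes.

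Of the 13 genes named by the study with its RIP-Seq result, 11 had bins over 30 reads. Replicate 3 only bins made up 106 of their 240 bins (44.2%, 38.0 to 50.5), near the 39.2% of all exonic bins, and 3 were replicate 1 only. The list is mixed, since the study reports no detectable binding to AURKA and no direct binding to MCM4. It names CDC6 and MCM3 among the direct targets in one place and as not bound in another. BIRC5 (survivin) and CDK1 each had 22 replicate 3 only bins, beside 44 and 26 common ones. DEK, a chromatin protein, had 21 beside 26 common. MCM3 had 10, CCNB1 9, STAT3 8, BIRC2 5, UBE2C 5, MCM2 3 and MCM4 2. MCM4 thus had no bin over 30 reads in both replicates. AURKB had 3 common bins only, and AURKA and CDC6 had none over 30 reads in either. For DEK the medians of its members were 47 IP reads in replicate 3 and 19 in replicate 1, at 33 input reads in each.

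**Figure D4:**
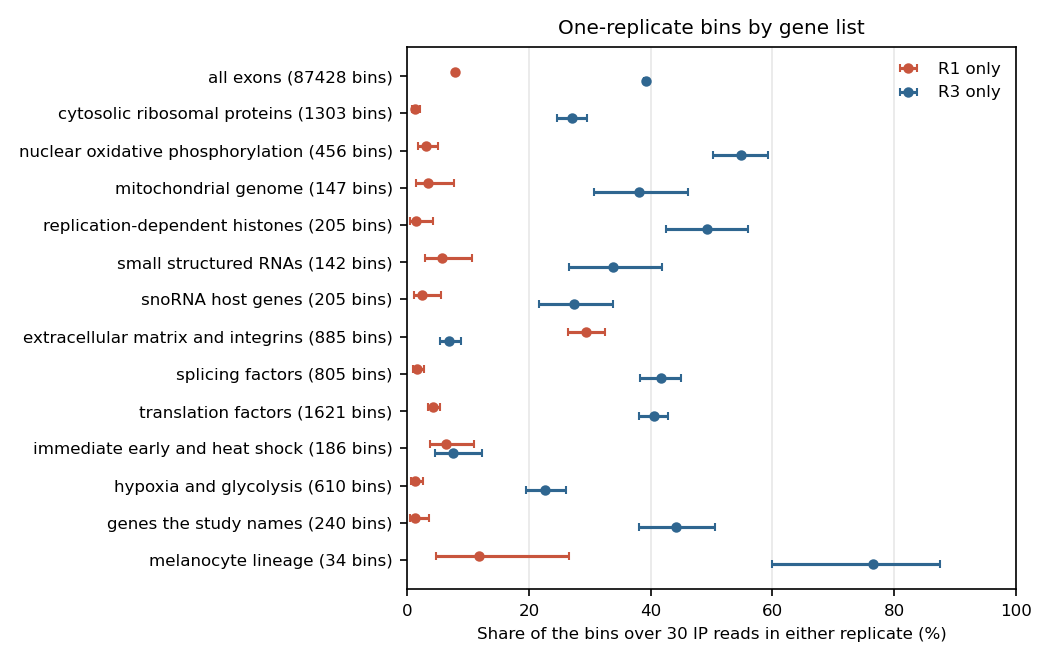
Share of exonic bins over 30 IP reads in either UACC-62 replicate (x axis, %) that passed in replicate 1 only (red) or replicate 3 only (blue), by gene list, for lists with at least 30 such bins. Bars are 95% Wilson intervals for counting error. Extracellular matrix and integrin genes alone have more replicate 1 only (29.4%) than replicate 3 only bins (6.89%).

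Single bins that dropped out of a strong peak formed another kind of member. In 136 replicate 1 only and 162 replicate 3 only bins the low replicate held 30 or fewer reads although both neighbours held more than 100 there. The strongest was in the 3′ UTR of SERPINE2, a secreted protease inhibitor, where chr2:224839921-224839940 had 17934 IP reads in replicate 1, 13 in replicate 3 and 318 in SK-Mel-103. Its neighbours had 1052 and 3989 reads in replicate 3, and the bin's own input was 818 and 661 reads. CBX3, a paralogue of CBX5, had the mirror image. In chr7:26252761-26252780 there were 7 IP reads in replicate 1 and 2168 in replicate 3, 585 in SK-Mel-103, and 361 input reads in either replicate. The adjoining replicate 1 bins held 1144 and 1604 reads. At both sites the input of the low replicate was not low, and the gap was 1 bin wide.

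MYO1D, a myosin, had an intronic bin of this sort at chr17:31149521-31149540, with 11929 reads in replicate 1 and 10 in replicate 3 between neighbours of 1996 and 3712. Its input was high in both (1556 and 1632 reads), its GC content was 70%, and 490 replicate 1 reads lay on the opposite strand. Over all such gaps the input log2 ratio had a median of -0.09 in replicate 1 only and 0.19 in replicate 3 only bins.

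**Figure D5:**
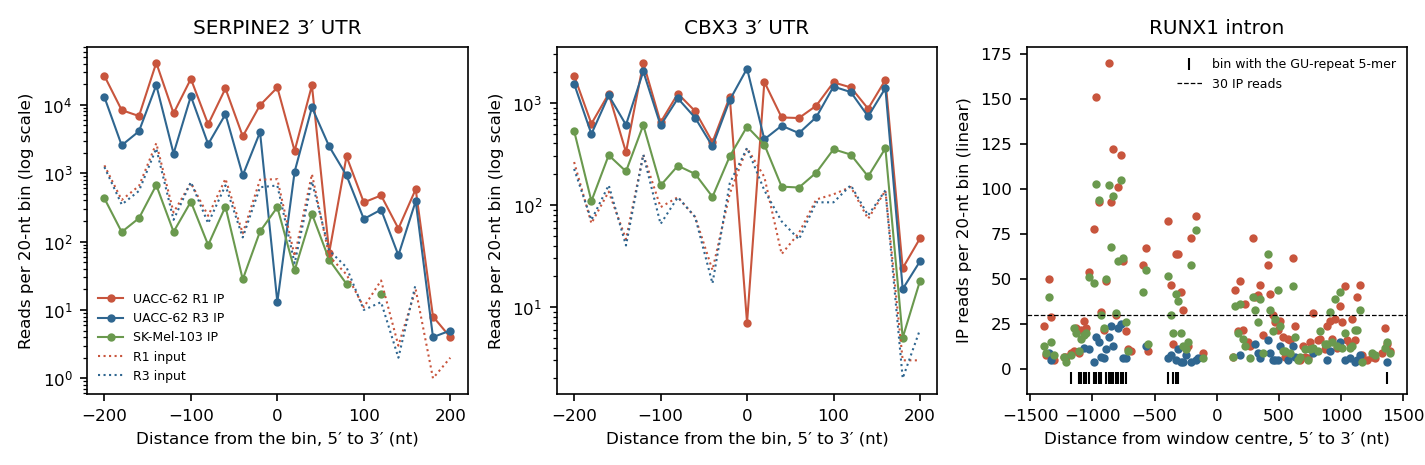
Reads per 20-nt bin around the SERPINE2 and CBX3 bins (log axes, IP as points and lines, input dotted) and IP reads over the RUNX1 intron (linear axis), against distance in nt on the transcript. At distance 0 replicate 3 falls to 13 reads in SERPINE2 and replicate 1 to 7 in CBX3, while in RUNX1 all listed replicate 3 bins of the members stay at or under 25 reads.

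The other bins with most IP reads lay on the strand opposite to genes, in exons or outside genes. A bin on the strand opposite to CHD9, chr16:53199061-53199080, had 8908 IP reads and no input read in replicate 1, was listed in neither other sample, and had no listed neighbour on its strand. One opposite to TEDC1, chr14:105957121-105957140, had 2216 reads in replicate 1 and 2057 in SK-Mel-103, with no input read in either, and 461 replicate 1 reads on the opposite strand. In ZNF469 the coding bin chr16:88501301-88501320 held 17481 reads in replicate 3 and 5203 in SK-Mel-103, again without input, together with 4069 replicate 3 reads on the opposite strand. ZNF485 had a 3′ UTR bin, chr10:44113161-44113180, with 11027 IP and 13716 input reads in replicate 3 alone. A bin outside genes, chr2:117770021-117770040, had 997 reads in replicate 3, 30 in replicate 1 and 509 in SK-Mel-103. The lncRNA ENSG00000259001 had 3 bins of replicate 3 not listed in replicate 1, with a median of 2448 IP and 7771 input reads, and 9 common bins. ENSG00000286016, another lncRNA, had 2 such bins.

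Most runs of adjoining members of the same group were a single bin. Such a bin can still lie beside a common bin or a member of another group. Runs of adjoining members numbered 7526 in replicate 1 only bins listed in replicate 3, 89.5% of them a single bin and the longest 7 bins, and 27686 in replicate 3 only bins listed in replicate 1, 81.6% of them single and the longest 12. A common bin lay directly beside 33.5% and 26.5% of these members, but beside 8.99% and 13.1% of members not listed in the other replicate. The next bin was listed in the other replicate for 92.3% and 94.7% of listed members and for 49.4% and 61.4% of unlisted ones. The same bin on the opposite strand was listed in the same replicate for 14.4% of unlisted replicate 1 members and 7.26% of unlisted replicate 3 members, against 3.86% and 1.21% of the listed ones. Within the 3′ UTR of the canonical transcript the position was similar in all groups, the median lying 47.2% along the 3′ UTR for replicate 1 only and 43.1% for replicate 3 only bins listed in both, with 43.9% for common bins. Median 3′ UTR lengths were 3480, 3384 and 3392 nt.

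In SK-Mel-103, every group of members passed less often than common bins. Common bins also held more IP reads in UACC-62, with medians of 59 in replicate 1 and 79 in replicate 3, as the choice of bins favours. How much of the lower share goes with this read level was not tested. Of all bins listed in UACC-62, 4.49% were over 30 IP reads in SK-Mel-103, and of common bins 62.8% (62.4 to 63.2). The share was 25.99% (25.5 to 26.5) for replicate 3 only and 22.4% (21.6 to 23.3) for replicate 1 only bins listed in both, 18.2% (14.9 to 22.1) for unlisted replicate 1 members and 11.9% (10.1 to 14.02) for unlisted replicate 3 members. At any read count SK-Mel-103 listed 88.8%, 80.98%, 53.0% and 41.9% of these groups. Among coding bins, replicate 3 only bins listed in replicate 1 reached 26.3% (25.3 to 27.3) and replicate 1 only bins 17.6% (15.5 to 19.9). In introns the listed groups had 21.2% (18.4 to 24.3) and 15.1% (12.9 to 17.5). The median SK-Mel-103 reads of listed members were 21 for replicate 3 only and 19 for replicate 1 only bins, under the threshold in both.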

How the data were processed

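The authors aligned 40-nt reads to GRCh37/hg19 with TopHat as first-strand libraries and called 20-nt bins with Piranha 1.2.1 against the matched input. Tool versions differ between the methods and the submitters' processing notes, which name TopHat2 2.0.4 and Bowtie 0.12.7. Each deposited list gives whole IP read counts per bin, not normalized, a p-value as the authors' caller wrote it (under 0.05), and a ratio deposited as the input covariate. Input reads were recovered here as whole multiples of the smallest step of that ratio, and bins at 0.01 were taken as having none. Only passing bins are listed, so reads outside them are unknown. Over bins with at least 20 reads in both replicates together, the chi-square per bin between replicates was 6.17 for IP and 4.06 for input, above the 1 of sampling noise, and they were kept as separate samples.

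Bins were matched on coordinates and strand. Transcripts were taken to lie opposite to the strand given in the lists. The bin centre was placed by GENCODE 44 mapped to GRCh37, in the order 3′ UTR, coding region, 5′ UTR, intron, exon and intron of other genes, antisense, outside genes. PECAM1 was not found in this annotation. Shares carry Wilson 95% intervals, and no test was made, because the bins were chosen by the values compared and each side is 1 sample. p-values of the lists were used only for a stricter listing. Members and gene lists were chosen with earlier results of these data known. Named genes were, in each group, the 5 protein-coding and 2 other genes with most bins, the 5 genes per replicate with most members among genes without a common bin, the 2 bins with most IP reads off chromosome 8, the genes the study names, and members of the lists. 1 lncRNA met by the rule is not reported here. The script that forms the groups was tested on simulated data. Tables were handled with pandas 2.3.3 and numpy 2.4.6, intervals came from scipy 1.17.1 and figures from matplotlib 3.10.9, all under Python 3.11.15. Read threshold, depth scaling, listed p, overlap, strand, order of regions, unit counted and abundant RNAs were varied.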

Additional observations from a re-analysis of the deposited data

How the results depend on the processing

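No result had a test, so an alternative could only move a count or a share. For replicate 1 only bins listed in replicate 3, replicate 1 only bins not listed, replicate 3 only bins listed in replicate 1 and replicate 3 only bins not listed, in this order, a threshold of 100 reads gave 1622, 58, 8292 and 142 bins with 76.1%, 19.0%, 78.3% and 10.6% in 3′ UTRs. Where the next bin counted as found, there were 5413, 225, 25627 and 399 bins, with 51.6%, 2.22%, 69.5% and 10.3% in 3′ UTRs. With the replicate 3 threshold scaled to depth, 13141 listed replicate 1 only bins (66.6% in 3′ UTRs), 19135 listed replicate 3 only bins and 619 unlisted ones (15.8%) were found. Listed p under 0.01 moved the last group's 3′ UTR share to 35.3%. Taking the listed strand as the transcript strand left 1.54%, 1.80%, 0.866% and 0.774% in 3′ UTRs. Counting each gene once per region, without bins antisense to or outside genes, gave 66.8%, 20.2%, 60.7% and 32.9%. Coding region before 3′ UTR, and leaving out mitochondrial and small structured RNA bins, moved the share of listed replicate 3 only bins to 70.8% and 72.7%. The remaining 21 counts and shares stayed within 1.5-fold or within their interval. Counted once per gene and region, listed replicate 1 only bins had the higher 3′ UTR share of the listed groups, in place of replicate 3 only bins. Leaving out the gene with most bins of each list, chosen after seeing the data, moved the replicate 3 only share past its interval for snoRNA host genes (50.5%), oxidative phosphorylation (60.1%), the mitochondrial gene list (51.0%) and the melanocyte lineage (57.9%). The cause of these shifts was not tested.

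Median gene input levels taken without replicate 1 were 20.5, 23.9, 47.7 and 70.4, and without replicate 3 23.7, 23.2, 45.5 and 65.4. As mean input reads per listed bin the order of the listed groups held, at 7.65 and 15.7 reads. Bins cannot be defined without either replicate. No paired analysis was possible because each comparison has 1 sample on each side and no test. Near 30 reads, counting error alone can move a bin across the threshold.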
